A study of Mus musculus with 19 samples.

Results

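The genes described here are 34 enzymes and transporters of glycolysis, lactate handling and the pentose phosphate pathway, taken by name from a table of 24421 gene symbols. All 34 symbols were present. They were read by bulk RNA-seq in 19 libraries of conventional dendritic cells sorted from mouse spleen (strain C57BL6): type 1 cells (cDC1), which are specialised in presenting antigen to CD8 T cells, and type 2 cells (cDC2), which mainly stimulate CD4 T cells. Each cell type came from 3 genotypes: mice labelled as lacking both Xbp1 and Ire1 (Xbp1-Ire1 KO, 3 cDC1 and 3 cDC2 libraries), mice lacking Xbp1 (Xbp1 KO, 3 and 3 libraries) and WT mice (3 cDC1 and 4 cDC2 libraries). The series asks what the sensor IRE1 and its target XBP1 do in dendritic cells. IRE1, encoded by Ern1, is an endoplasmic reticulum protein that splices Xbp1 mRNA, which then encodes the active transcription factor XBP1. Some WT libraries carry names for floxed alleles of both genes (fl-fl: cDC1 WT replicates 1 and 2, cDC2 WT replicates 1 and 2), and the others are named WT (cDC1 WT replicate 3, cDC2 WT replicates 3 and 4). The labels give neither the Cre driver nor the age or sex of the mice, and they do not say whether the libraries of a group came from separate mice, so p-values measure the spread between these libraries.

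Glycolysis splits glucose into pyruvate. Transporters of the SLC2A family let glucose into the cell, hexokinases trap it as glucose-6-phosphate, and phosphofructokinase commits it to the pathway under the control of fructose-2,6-bisphosphate, which the PFKFB enzymes make and remove. Pyruvate is turned into lactate by lactate dehydrogenase and exported by monocarboxylate transporters, or it enters the mitochondrion through pyruvate dehydrogenase, which the PDK kinases switch off. The pentose phosphate pathway branches off at glucose-6-phosphate; its oxidative arm makes NADPH and its non-oxidative arm exchanges sugar phosphates with glycolysis. Dendritic cells are known to raise glycolysis early after activation.

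Libraries held between 10606864 and 16209469 counts. Values are given as CPM (counts divided by library size on a common scale, with TMM over all 19 libraries), and calls are those with an adjusted p under 0.05 in the edgeR quasi-likelihood test, adjusted over every gene tested by the Benjamini-Hochberg method. Xbp1 counted 359, 346 and 312 CPM in the cDC1 libraries labelled Xbp1-Ire1 KO, 99.0, 92.9 and 117 CPM in those labelled Xbp1 KO and 239.8, 149.6 and 147 CPM in WT cDC1. Ern1 counted 72.6, 62.3 and 52.3 CPM in the cDC1 libraries labelled Xbp1-Ire1 KO, 33.1, 34.3 and 27.8 CPM in those labelled Xbp1 KO and 23, 29.9 and 24.1 CPM in WT cDC1. Both transcripts were thus highest in the cDC1 libraries labelled as lacking both genes. In cDC2, Xbp1 lay between 55.9 and 76.0 CPM in the libraries labelled Xbp1-Ire1 KO, between 40.8 and 55.7 CPM in those labelled Xbp1 KO and between 70.3 and 154 CPM in WT, and Ern1 lay between 20.1 and 30.7 CPM in all 10. These counts add up reads over all remaining exons of a gene and the labels do not say which exons were deleted, so they check neither label, and the groups are called by their labels here. The 10 cDC1 markers summed to 11528 to 13377 CPM in the cDC1 libraries and to 1122 to 1396 CPM in the cDC2 libraries, and the 10 cDC2 markers to 39.1 to 130.2 CPM in cDC1 and 2704 to 4032 CPM in cDC2, as labelled. Replicate 3 of cDC1 Xbp1 KO carried 2118 CPM of 12 pancreatic acinar transcripts, against 0.81 to 8.29 CPM in the other libraries, and its effect on each call is given below.

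In WT cells, cDC1 and cDC2 differed in which gene was the most abundant at 4 steps (glucose transport, hexokinase, phosphofructokinase and lactate transport), the enolases aside, and cDC1 had more transcript for most of the steps from glucose-6-phosphate to lactate. Of the 33 members tested between WT cDC1 and WT cDC2, 16 were higher in cDC1, 9 were lower and 8 did not pass. The background was 20% of 12185 tested genes called higher, 20.7% lower and 40.8% in either direction, and the median log2 fold change of the members was 0.29, against -0.04 over all genes. The summed level of the members was 6640 to 8078 CPM in WT cDC1 and 4474 to 5214 CPM in WT cDC2, so these ranges did not overlap.

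**Figure D1:**
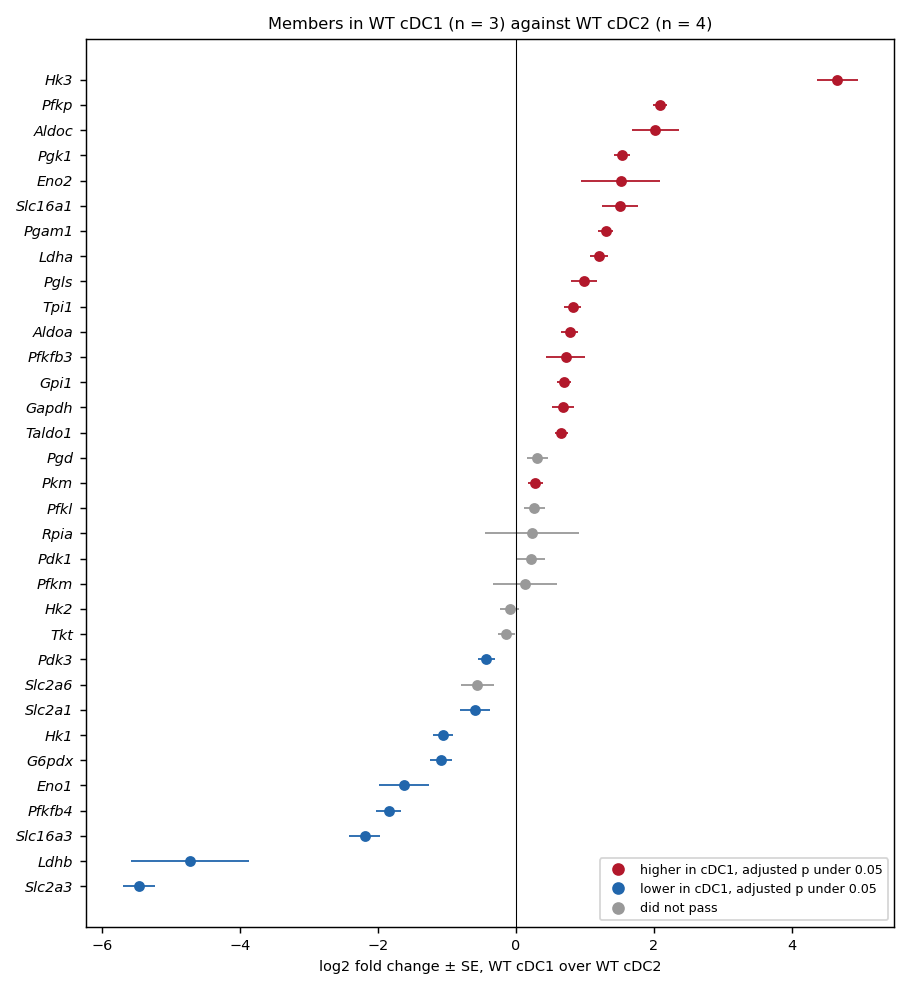
Log2 fold change (x axis, bars: standard error) of each tested member in WT cDC1 (3 libraries) over WT cDC2 (4 libraries), sorted by size. Hk3 lies farthest to the right at 4.66 and Slc2a3 farthest to the left at -5.46; 8 grey points did not pass.

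Glucose entry was the step with the largest difference. Slc2a3 (GLUT3), a high-affinity glucose transporter, counted 4.78, 8.44 and 4.37 CPM in WT cDC1 and 278, 290.0, 252 and 219 CPM in WT cDC2. The cDC1 libraries were far below every cDC2 library, with a log2 fold change of -5.46 ± 0.23 (SE) and an adjusted p of 4.51e-13. Slc2a1 (GLUT1), the common basal transporter, counted 42.8, 43.2 and 23.4 CPM in WT cDC1 and 40.1, 49.9, 78.8 and 50 CPM in WT cDC2. Its groups overlapped, and its lower call in cDC1 (log2 fold change -0.58, adjusted p = 0.0379) did not pass without cDC1 WT replicate 3 (adjusted p = 0.201), without cDC2 WT replicate 3 (adjusted p = 0.175) or with a block for the name and number of the library descriptions, which only 2 pairs of libraries share (log2 fold change -0.07, adjusted p = 0.795). Slc2a6 (GLUT6), a transporter found mainly on intracellular membranes and known from inflammatory macrophages, counted 33.4, 14.9 and 30.1 CPM in WT cDC1 and 43.7, 48.4, 28.0 and 33.7 CPM in WT cDC2, an overlapping pair that did not pass (adjusted p = 0.0659). It was called lower in WT cDC1 without cDC1 WT replicate 1 (log2 fold change -0.77, adjusted p = 0.0287), without cDC2 WT replicate 3 (-0.69, 0.031), with the fl-fl libraries alone (-0.95, 0.0147) and with the block by description (-1.04, 4.79e-06). Per kb of exon, Slc2a3 made 6.17 ± 2.9% (SD, n = 3) of the summed level of these 3 transporters in WT cDC1 and 65.3 ± 2.3% (SD, n = 4) in WT cDC2. In WT cDC1, Slc2a6 with 48.8 ± 16% and Slc2a1 with 45.1 ± 14% (SD, n = 3) made up the rest.

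The most abundant hexokinase transcript was another one in each cell type. Hk3, which is found mainly in myeloid cells, counted 214, 206 and 137 CPM in WT cDC1 and 7.98, 8.68, 5.20 and 7.39 CPM in WT cDC2. Every cDC1 library was many times above every cDC2 library (log2 fold change 4.66 ± 0.30, adjusted p = 1.23e-10). Hk1, the form bound to mitochondria in most tissues, was lower in WT cDC1, at 33.3 to 50.6 CPM against 73.4 to 96 CPM in WT cDC2 (log2 fold change -1.05, adjusted p = 4.48e-06). Hk2, the insulin- and hypoxia-responsive form, did not pass, at 54.2 to 62.1 CPM in WT cDC1 and 50.3 to 65.5 CPM in WT cDC2. Per kb, Hk3 held 74.0 ± 6.4% of the hexokinase level in WT cDC1 and 7.05 ± 1.5% in WT cDC2, where Hk1 held 58.2 ± 5.1%.

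Phosphofructokinase is built from 3 subunit types. Pfkp, the platelet subunit, counted 257, 237 and 242 CPM in WT cDC1 and 55.2, 56.9, 59.3 and 59.6 CPM in WT cDC2. The libraries within each cell type lay close together and the groups were far apart (log2 fold change 2.09 ± 0.10, adjusted p = 3.22e-12). Pfkl, the liver subunit, was at 84.9 to 108 CPM in WT cDC1 and 73.1 to 90.8 CPM in WT cDC2, and Pfkm, the muscle subunit, had at most 5.05 CPM in any of the 19 libraries, and neither passed. Pfkp therefore held 67.2 ± 2.9% of the subunit level per kb in WT cDC1 and 36.7 ± 2.1% in WT cDC2, where Pfkl held 60.3 ± 1.6%. The bifunctional enzyme Pfkfb4, which can both make and remove fructose-2,6-bisphosphate, was lower in WT cDC1, at 9.90 to 12.5 CPM against 35.3 to 47.5 CPM (log2 fold change -1.84, adjusted p = 6.39e-08). Pfkfb3, which almost only makes it, was called higher in WT cDC1 (log2 fold change 0.73, adjusted p = 0.0461), but without cDC1 WT replicate 3 the log2 fold change was 0.03 and the adjusted p 0.93, and without any one cDC2 WT library the adjusted p was 0.0571 to 0.109. With the replicate number as a block its adjusted p was 0.0736, and 0.523 with the block by description.

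**Figure D2:**
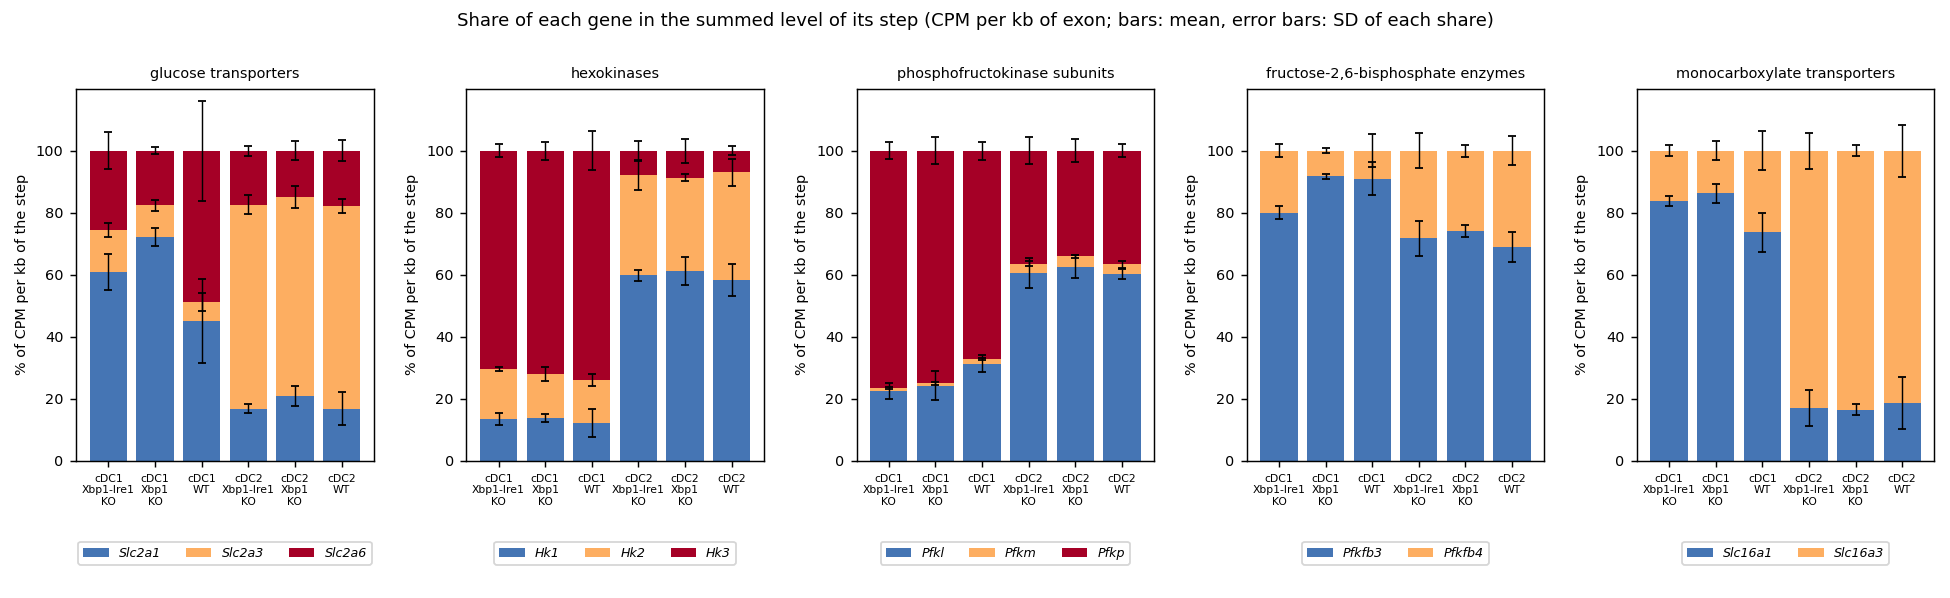
Share (% of the summed CPM per kb of exon, y axis) of each gene within 5 steps in the 6 groups; stacked bars are means over 3 libraries (4 in cDC2 WT), error bars the SD of each share. Hk3, Pfkp and Slc16a1 fill most of the cDC1 bars of their steps and Slc2a3, Hk1, Pfkl and Slc16a3 most of the cDC2 bars, and the Slc2a6 share in cDC1 is 25.6% in Xbp1-Ire1 KO, 17.6% in Xbp1 KO and 48.8% in WT.

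The steps from glucose-6-phosphate to pyruvate were more abundant in WT cDC1. Gpi1, which makes fructose-6-phosphate, was higher in cDC1 (log2 fold change 0.70), as were the aldolases Aldoa (0.78) and Aldoc (2.02), which split the hexose, and the triose isomerase Tpi1 (0.83), with adjusted p between 1.53e-05 and 7.21e-05. Pgk1, the first step that returns ATP, counted 397, 321 and 310.0 CPM in WT cDC1 and 122, 127, 105 and 118 CPM in WT cDC2. Pgam1, which moves the phosphate of phosphoglycerate, counted 356, 339.5 and 289 CPM in WT cDC1 and 121, 155, 129 and 126 CPM in WT cDC2. Neither gene overlapped between the cell types, with log2 fold changes of 1.54 ± 0.12 for Pgk1 (adjusted p = 1.33e-09) and 1.30 ± 0.11 for Pgam1 (adjusted p = 4.88e-09). Gapdh, which oxidises the triose, was higher in cDC1 by a log2 fold change of 0.69 (adjusted p = 0.00161) although its groups overlapped, and with only the WT-named libraries, 1 of cDC1 and 2 of cDC2, it did not pass (adjusted p = 0.0831), in a fit that assumes a lone library to vary like the other groups. Pkm, pyruvate kinase, was nearly as abundant in both, at 690.2 to 805 CPM in WT cDC1 and 549.7 to 679 CPM in WT cDC2 (log2 fold change 0.29, adjusted p = 0.0338), and that call did not pass without cDC1 WT replicate 1 (adjusted p = 0.128), cDC1 WT replicate 2 (0.121) or cDC2 WT replicate 3 (0.109), nor with the block by description (0.135). The enolases stood out by their low counts: Eno1, the ubiquitous form, had 2.66 to 19.4 CPM over the 19 libraries, although it precedes Pkm in the same chain. Eno1 has a near-identical intronless copy in the mouse genome, and how the counting treated reads that match both is not given in the sources used here, so Eno1 and the enolase sum are uncertain. Per kb, Eno2 held 59.4 ± 17% (SD, n = 3) of the enolase level in WT cDC1, with 44.6% in the lowest library, and Eno1 held 81.4 ± 7.7% (SD, n = 4) in WT cDC2. Eno1 was lower in WT cDC1 (log2 fold change -1.62), and Eno2, the neuronal form, was called higher (1.52, adjusted p = 0.039) with overlapping groups and did not pass without any one of 5 libraries, with an adjusted p of 0.416 without cDC1 WT replicate 3.

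Lactate handling was split by isoform as well. Ldha, the subunit that favours lactate formation, counted 1596, 1455 and 1165 CPM in WT cDC1 and 651, 637, 517 and 632 CPM in WT cDC2, and every cDC1 library was above every cDC2 library (log2 fold change 1.21 ± 0.13, adjusted p = 2.02e-07). Ldhb, the subunit that favours pyruvate formation, had 0, 4 and 2 counts in WT cDC1, against 41, 86, 38 and 68 counts in WT cDC2 (log2 fold change -4.73 ± 0.85, adjusted p = 0.000147). Ldha held at least 98.9% of the mean lactate dehydrogenase level per kb in each of the 6 groups. Slc16a1 (MCT1), which carries lactate in either direction, was higher in WT cDC1 (17.7 to 24.7 CPM, against 5.61 to 11 CPM in WT cDC2), and Slc16a3 (MCT4), the exporter typical of strongly glycolytic cells, was lower (6.80 to 9.07 CPM against 25.2 to 42.6 CPM). Their log2 fold changes were 1.51 for Slc16a1 and -2.19 for Slc16a3. Pdk3, the more abundant of the listed pyruvate dehydrogenase kinases, was lower in WT cDC1 (log2 fold change -0.42, adjusted p = 0.00796; 0.0509 without cDC1 WT replicate 3), and Pdk1 did not pass.

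In the pentose phosphate pathway, the entry enzyme and the following one differed in opposite directions. G6pdx, glucose-6-phosphate dehydrogenase, lay at 46.7 to 55.7 CPM in WT cDC1 and 93.3 to 128 CPM in WT cDC2 (log2 fold change -1.08, adjusted p = 1.37e-05). Pgls, the lactonase of the second step, lay at 97 to 175 CPM in WT cDC1 and 60.1 to 87.2 CPM in WT cDC2 (log2 fold change 0.99, adjusted p = 0.000222; 0.052 with the single WT-named cDC1 library against the 2 of cDC2). Pgd, the second NADPH-making enzyme, and the non-oxidative enzymes Tkt (transketolase) and Rpia (ribose-5-phosphate isomerase) did not pass. Taldo1, transaldolase, was among the most abundant members, at 1308 to 1463 CPM in WT cDC1 and 809 to 933 CPM in WT cDC2 (log2 fold change 0.66, adjusted p = 1.38e-05). Per kb it held 92.0 ± 0.88% of the non-oxidative level in WT cDC1 and 86.8 ± 1.4% in WT cDC2. Fbp1, the gluconeogenic enzyme that runs against phosphofructokinase, had 0 counts in all 19 libraries, which allows up to 0.18 to 0.273 CPM per library from a floor of 3 counts (counting error only).

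**Figure D3:**
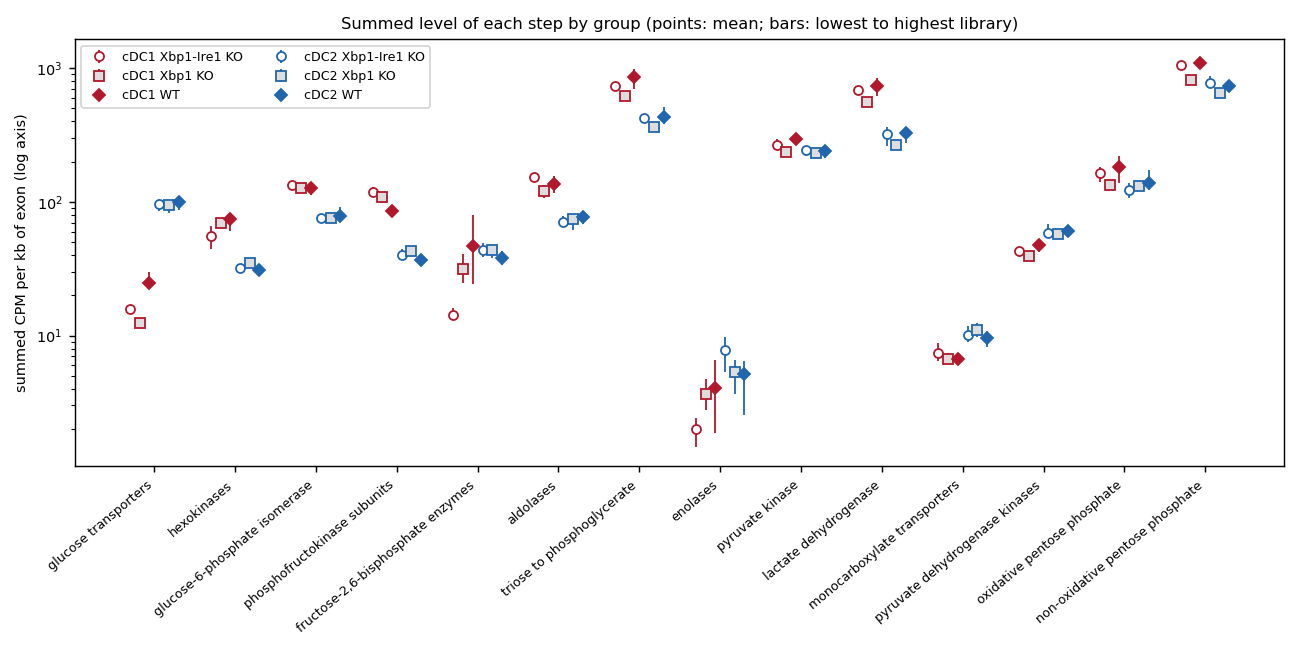
Summed level of each step (CPM per kb of exon, log axis) in the 6 groups; points are means over 3 libraries (4 in cDC2 WT), bars run from the lowest to the highest library. Glucose transporters are the step with the widest gap between cell types, at 22.4 to 29.9 in cDC1 WT and 86.3 to 111 in cDC2 WT, and enolases are the lowest step drawn.

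In cDC1 labelled Xbp1-Ire1 KO, 4 of these genes differed from WT. Slc2a6, Pfkfb3 and Eno2 were lower and Pfkp was higher in Xbp1-Ire1 KO than in WT, and the other 28 of 32 tested members did not pass. Over all 11353 genes tested in cDC1, 7.75% were called in this comparison, 3.04% higher and 4.71% lower. The members' median log2 fold change was -0.14 (all genes: 0.01), with 24 negative and 8 positive, while 49% of all genes were negative. Since these are bulk samples, fewer cells of a type and less RNA per cell cannot be told apart.

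In cDC1 labelled Xbp1 KO, 6 members differed from WT: Slc2a6, Taldo1, Pgk1, Pgam1 and Ldha were lower and Pfkp was higher in Xbp1 KO than in WT. The background in this comparison was 11.2% of genes called, 4.28% higher and 6.91% lower. The members' median log2 fold change was -0.34 (all genes: -0.02); 26 of the 32 tested members were negative and 6 positive, while 52% of all genes were negative. Between the knockouts, Pfkfb3 was lower and Taldo1 higher in Xbp1-Ire1 KO than in Xbp1 KO, and 30 members did not pass, against a background of 12.7% called, 7.13% higher and 5.52% lower. The comparisons share libraries, so their values are set side by side and not as independent results.

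**Figure D4:**
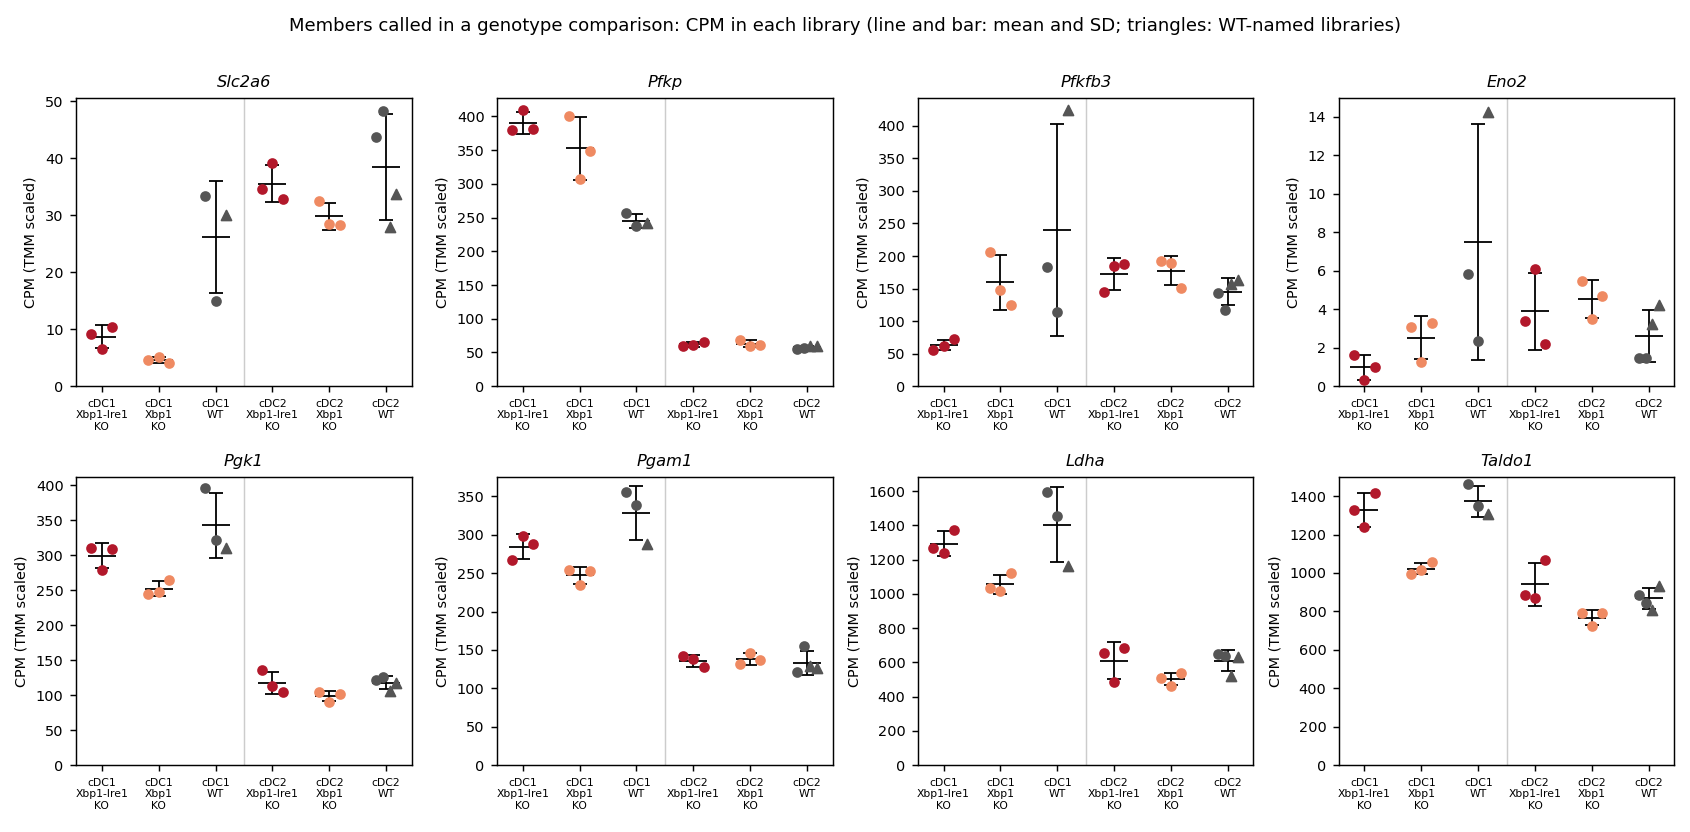
CPM (y axis, from 0) in every library of the 8 members called in a genotype comparison; points are libraries, triangles WT-named libraries, the line and bar the mean and SD. Slc2a6 lies at 4.11 to 10.5 in the 6 cDC1 knockout libraries and at 14.9 to 33.4 in the 3 cDC1 WT libraries, and Pfkfb3 of cDC1 WT replicate 3 lies at 424.

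Slc2a6 was lower in both knockouts in cDC1. The gene lies at chr2:27021363-27027998 on the minus strand (GRCm38). It counted 9.09, 6.50 and 10.5 CPM in Xbp1-Ire1 KO, 4.67, 5.17 and 4.11 CPM in Xbp1 KO, against 33.4, 14.9 and 30.1 CPM in WT. All 6 knockout libraries were below all 3 WT libraries, and the Xbp1 KO libraries were the lowest. The log2 fold change was -1.59 ± 0.30 in Xbp1-Ire1 KO against WT (adjusted p = 0.00536) and -2.5 ± 0.32 in Xbp1 KO against WT (adjusted p = 0.000217), and both calls held in every alternative run. The difference between the knockouts, 0.91 ± 0.31, did not pass by edgeR (adjusted p = 0.0736), whereas DESeq2 called it (0.90, adjusted p = 0.0417). In cDC2, Slc2a6 counted 34.7, 39.2 and 32.9 CPM in Xbp1-Ire1 KO, 32.5, 28.5 and 28.3 CPM in Xbp1 KO, against 43.7, 48.4, 28.0 and 33.7 CPM in WT, with overlap of both knockouts with WT. Tested as a difference between the cell types, the effect in cDC1 exceeded that in cDC2 by a log2 fold change of -1.48 ± 0.35 for Xbp1-Ire1 KO (adjusted p = 0.0256) and -2.12 ± 0.36 for Xbp1 KO (adjusted p = 0.00117). The Xbp1-Ire1 KO value did not pass in 10 of 20 alternatives, with adjusted p up to 0.194 (against the fl-fl WT libraries alone). In cDC1, the mean Slc2a1 share of the transporter level per kb was 60.9 ± 5.9% in Xbp1-Ire1 KO, 72.2 ± 2.8% in Xbp1 KO and 45.1 ± 14% in WT (SD, n = 3 each), while Slc2a1 itself did not pass with all WT libraries.

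Pfkp was the only member called higher in a knockout than in WT in cDC1. The gene lies at chr13:6579768-6648777 on the minus strand. It counted 380.0, 409 and 381 CPM in Xbp1-Ire1 KO, 401, 307 and 349 CPM in Xbp1 KO, against 257, 237 and 242 CPM in WT. All 6 knockout libraries lay above all 3 WT libraries. The log2 fold change was 0.67 ± 0.12 for Xbp1-Ire1 KO against WT (adjusted p = 0.00416), which held in every alternative, and 0.51 ± 0.12 for Xbp1 KO against WT (adjusted p = 0.0176). The Xbp1 KO call was lost when cDC1 WT replicate 2 (adjusted p = 0.0647) or replicate 1 of cDC1 Xbp1 KO (0.0897) was left out, and against the single WT-named library (0.128). In cDC2, Pfkp stayed between 55.2 and 68.9 CPM in all 10 libraries. Its difference between the cell types did not pass for either knockout against WT. For Xbp1-Ire1 KO that difference was 0.57 and was called only in some alternatives. With all WT libraries, the other hexose steps in cDC1 did not pass in any genotype comparison: Hk1, Hk2, Hk3, Gpi1, Pfkl and Pfkm in this stretch, and Slc2a1 and Slc2a3 before it. Against the fl-fl WT libraries alone, Hk3 (log2 fold change -0.67, adjusted p = 0.0104) and Slc2a1 (-0.45, 0.048) were called lower in Xbp1-Ire1 KO. Gapdh was called lower there too (-0.48, 0.0159). Over all genes that run called 1966, against 880 with all WT libraries.

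Pfkfb3 and Eno2 were lower in Xbp1-Ire1 KO cDC1. Pfkfb3 (chr2:11471433-11554077, minus strand) counted 56.0, 61.4 and 72.4 CPM in Xbp1-Ire1 KO, 207, 147 and 125 CPM in Xbp1 KO, against 183, 113 and 424 CPM in WT. The Xbp1-Ire1 KO libraries were below all others of cDC1, and the highest value was that of the WT-named library. The log2 fold change was -1.92 ± 0.36 against WT (adjusted p = 0.00534) and -1.32 ± 0.36 against Xbp1 KO (adjusted p = 0.0288); Xbp1 KO against WT did not pass. The call against WT held in every alternative, with log2 fold changes from -2.73 to -1.23, whereas leaving out any of 5 single libraries ended the call against Xbp1 KO (each Xbp1-Ire1 KO replicate, adjusted p = 0.118, 0.0758 and 0.063, and Xbp1 KO replicates 1 and 2, adjusted p = 0.131 and 0.0751). Pfkfb3 in cDC2 lay at 145 to 187 CPM in Xbp1-Ire1 KO, 152 to 192 CPM in Xbp1 KO, against 117 to 163 CPM in WT, and its difference between cell types for Xbp1-Ire1 KO was -2.17 ± 0.42 (adjusted p = 0.00615). Pfkfb4, its relative, did not pass in cDC1, at 9.14 to 10.3, 7.88 to 10.5 and 9.90 to 12.5 CPM in Xbp1-Ire1 KO, Xbp1 KO and WT.

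Eno2 (chr6:124760053-124769673, minus strand) had few counts in cDC1: 18, 5 and 15 in Xbp1-Ire1 KO, 36, 14 and 38 in Xbp1 KO and 68, 30 and 176 in WT. The largest count again belonged to the WT-named library, but the Xbp1-Ire1 KO counts were below all WT counts. The log2 fold change for Xbp1-Ire1 KO against WT was -2.96 ± 0.72 (adjusted p = 0.0225), which did not pass without cDC1 WT replicate 3 (adjusted p = 0.0602), Xbp1-Ire1 KO replicate 2 (0.073) or Xbp1-Ire1 KO replicate 3 (0.0801). The difference between cell types for Eno2 was -3.55 ± 0.89 (adjusted p = 0.0368), and 10 of its alternatives did not pass. Eno1 did not pass in any genotype comparison by edgeR. DESeq2 called it higher in cDC1 Xbp1 KO than in WT (log2 fold change 1.02, adjusted p = 0.0415).

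Pgk1, Pgam1, Ldha and Taldo1 made up the remaining calls, all small. They lie at chrX:106187100-106203699 (Pgk1), chr19:41911923-41918660 (Pgam1), chr7:46841475-46855627 (Ldha) and chr7:141392199-141402968 (Taldo1), all on the plus strand. Pgk1, Pgam1 and Ldha have pseudogene copies in the mouse genome, and how the counting shared reads with them is not given in the sources used here. Pgk1 counted 309.8, 279 and 309.6 CPM in Xbp1-Ire1 KO, 245, 248 and 264 CPM in Xbp1 KO, against 397, 321 and 310.0 CPM in WT. Pgam1 counted 267, 299 and 288 CPM in Xbp1-Ire1 KO, 254, 235 and 252 CPM in Xbp1 KO, against 356, 339.5 and 289 CPM in WT. For both genes the Xbp1 KO libraries were below all other cDC1 libraries. Ldha counted 1265, 1236 and 1375 CPM in Xbp1-Ire1 KO, 1034, 1014 and 1119.6 CPM in Xbp1 KO, against 1596, 1455 and 1165 CPM in WT. Taldo1 counted 1330.3, 1238 and 1416 CPM in Xbp1-Ire1 KO, 997, 1017 and 1055 CPM in Xbp1 KO, against 1463, 1347 and 1308 CPM in WT. Here too the 3 Xbp1 KO libraries were the lowest of the 9. In Xbp1 KO against WT the log2 fold changes were -0.45 ± 0.12 for Pgk1 (adjusted p = 0.0335), -0.42 ± 0.12 for Pgam1 (0.0363), -0.42 ± 0.13 for Ldha (0.0485) and -0.43 ± 0.11 for Taldo1 (0.0213). In Xbp1-Ire1 KO against WT they were -0.19, -0.20, -0.12 and -0.04 in the same order of genes and did not pass. Taldo1 was higher in Xbp1-Ire1 KO than in Xbp1 KO by 0.39 ± 0.11 (adjusted p = 0.03), and Pgk1, Pgam1 and Ldha did not pass in that comparison (0.26, 0.22 and 0.31).

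The calls of these 4 genes depended on single libraries. In Xbp1 KO against WT, Pgk1, Pgam1 and Ldha did not pass when any one library of the 2 groups was left out, except cDC1 WT replicate 3, and Taldo1 did not pass without WT replicate 1 (adjusted p = 0.099), WT replicate 2 (0.0679), Xbp1 KO replicate 1 (0.0996) or Xbp1 KO replicate 2 (0.0946). Adjusted p over the alternatives ran from 0.00606 to 0.332 for Pgk1, from 0.00335 to 0.476 for Pgam1, from 0.00191 to 0.647 for Ldha and from 0.00103 to 0.204 for Taldo1. Without Xbp1 KO replicate 3, the library with acinar transcripts, the adjusted p was 0.0658 for Pgk1, 0.0783 for Pgam1 and 0.0741 for Ldha. The Taldo1 call against Xbp1 KO did not pass without any one of 5 libraries, Xbp1-Ire1 KO replicates 1 and 3 and each Xbp1 KO replicate, with adjusted p between 0.0581 and 0.149.

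Several neighbours of these enzymes missed the threshold in Xbp1 KO against WT with changes of like size. Gapdh counted 353, 366 and 447 CPM in Xbp1 KO, against 691, 609.6 and 399 CPM in WT (log2 fold change -0.55 ± 0.18, adjusted p = 0.0585), with overlap through the WT-named library. Pgls followed with -0.65 ± 0.21 (0.0585), Tpi1 with -0.39 ± 0.13 (0.0633), Pdk3 with -0.44 ± 0.15 (0.072), Pkm with -0.33 ± 0.12 (0.0867), Slc16a3 with -0.91 ± 0.32 (0.0872) and Tkt with -0.33 ± 0.13 (0.116). Tpi1, Pkm, Slc16a3, Pdk3 and Tkt were among 10 members whose Xbp1 KO libraries all lay below all WT libraries, and 2 members, Pfkp and Eno1, lay above; of all tested genes 15.8% lay below and 14.4% above. In Xbp1-Ire1 KO against WT, 5 members lay wholly below WT (Slc2a6, Pfkfb3, Pgk1, Eno2 and Slc16a3; background 13.8%) and 2 wholly above (Pfkp and Pdk1; background 12.5%). In Xbp1-Ire1 KO against Xbp1 KO, 10 lay wholly above (Slc2a3, Slc2a6, Aldoa, Tpi1, Pgk1, Pgam1, Pkm, Ldha, Tkt and Taldo1; background 17.3%) and 3 wholly below (Hk1, Pfkfb3 and Eno1; background 19.3%). The values of G6pdx (0.04), Pgd (-0.26), Aldoa (-0.19), Aldoc (-0.24), Slc16a1 (0.23), Pdk1 (0.20) and Rpia (-1.19, at most 3.46 CPM in any library) did not pass either.

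The choice of WT libraries moved this count. Against the fl-fl WT libraries alone, 14 members were called in Xbp1 KO, and the added ones were Gapdh, Pdk3, Pgd, Pgls, Pkm, Slc2a1, Tkt and Tpi1, all lower. Over all genes the calls in that run rose as well, from 1270 to 2926, so a rise in calls was not particular to the members. Against the WT-named library alone, 2 members were called; this sets 3 libraries against 1, with the spread taken from the knockout libraries, so fewer calls say little about stability. That library is cDC1 WT replicate 3. Its counts differed from those of replicates 1 and 2 by a chi-square per gene of 75.6 and 72.3, against 13.7 between replicates 1 and 2. The cDC2 WT libraries split by name as well. Theirs was 24.9 between the fl-fl libraries, 15.4 between the WT-named ones and 52.5 to 69.5 across the 2 kinds. The part of cDC1 WT replicate 3 in the calls is given by these alternatives. What sets the 2 kinds of WT library apart was not tested. DESeq2 called 11 members, and a fit of the compared groups alone called 3. Over all genes, the fit of the compared groups alone called 828.

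Other transcripts moved in the same cDC1 libraries. The 24 proliferation genes summed to 1301 to 2092 CPM in Xbp1-Ire1 KO, 908 to 1097 CPM in Xbp1 KO, against 1262 to 2159 CPM in WT, and 8 of 24 were lower in Xbp1 KO than in WT and 0 higher. The 23 immediate early genes, which respond within minutes to stimulation and to tissue handling, summed to 10691 to 15883 CPM in Xbp1-Ire1 KO, 25694 to 29758 CPM in Xbp1 KO, against 14795 to 18690 CPM in WT, with 1 higher and 5 lower in Xbp1-Ire1 KO and 8 higher and 0 lower in Xbp1 KO against WT. The Xbp1 KO libraries thus had the lowest proliferation sums, the highest immediate early sums and the lowest levels of Pgk1, Pgam1, Ldha and Taldo1, and the part of those 2 lists in the levels of these members was not tested. Red pulp macrophage markers, 9 genes, summed to 159 to 535 CPM in Xbp1-Ire1 KO, 159.6 to 656 CPM in Xbp1 KO, against 209 to 312 CPM in WT, and 0 of 9 were called in either knockout against WT. Neutrophil markers, 6 genes, summed to 10.8 to 33.6 CPM in Xbp1-Ire1 KO, 1.53 to 7.08 CPM in Xbp1 KO, against 2.90 to 5.63 CPM in WT, with 0 of 4 tested called in either knockout against WT. Plasmacytoid dendritic cell markers, 6 genes, summed to 109 to 162 CPM in Xbp1-Ire1 KO, 49.96 to 100.9 CPM in Xbp1 KO, against 58.2 to 76.4 CPM in WT, with 1 higher and 1 lower in Xbp1-Ire1 KO and 1 higher and 0 lower in Xbp1 KO. Erythroid markers, 7 genes, summed to 9.90 to 39.9 CPM in Xbp1-Ire1 KO, 2.04 to 3.86 CPM in Xbp1 KO, against 2.66 to 10.3 CPM in WT, and of 3 tested 1 was higher in Xbp1-Ire1 KO and 1 lower in Xbp1 KO. The neutrophil and plasmacytoid sums of all Xbp1-Ire1 KO libraries thus lay above those of all WT libraries. In the plasmacytoid list that sum was mostly Cox6a2, at 68.8 to 114 CPM in Xbp1-Ire1 KO and 0.31 to 0.65 CPM in WT, whereas the defining marker Siglech had 0.13 to 1.74 CPM in Xbp1-Ire1 KO and 0.39 to 3.65 CPM in WT. Of the cDC2 markers, 2 of 7 tested were lower in Xbp1-Ire1 KO and 0 were called in Xbp1 KO, and of the 10 cDC1 markers 2 were lower in each knockout and 1 was higher in Xbp1 KO. Of the B cell, T cell, plasma cell and monocyte markers 0 were called in either knockout against WT, and NK cell markers, at most 1.99 CPM in sum, were too low to test. The part of these cell types in the members' values was not tested.

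**Figure D5:**
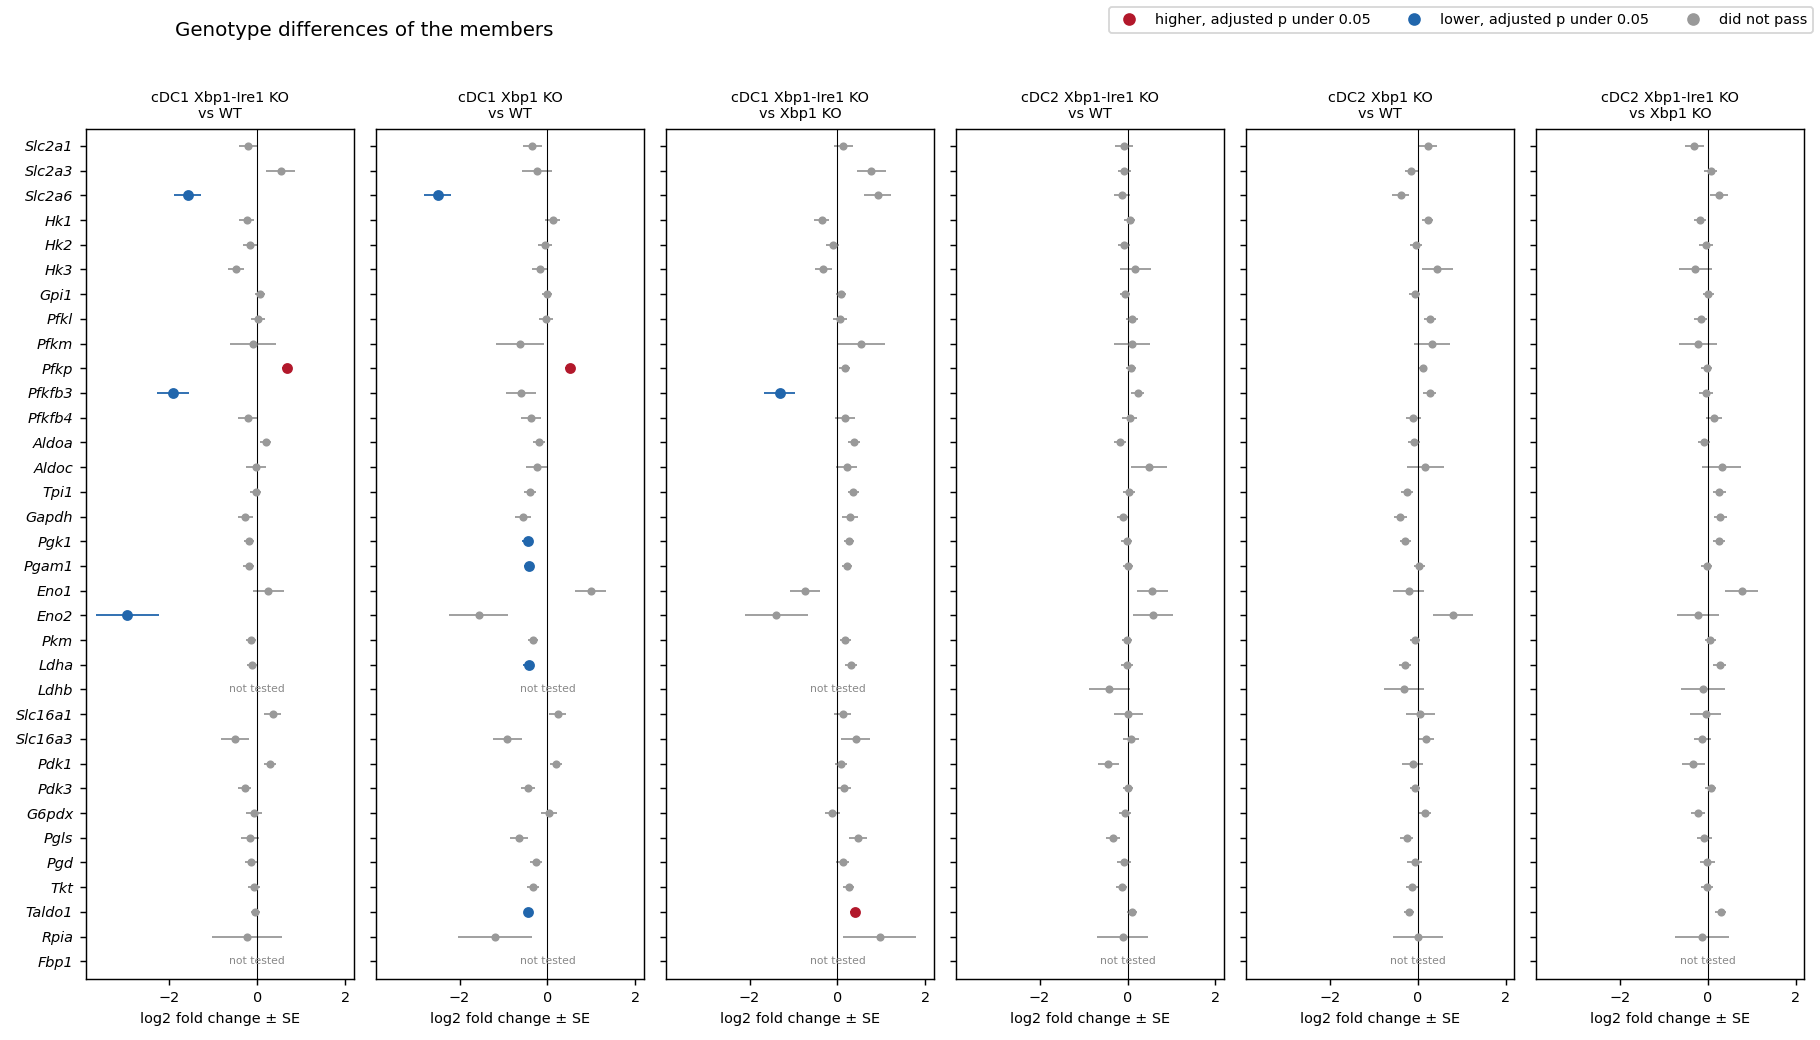
Log2 fold change (x axis, bars: standard error) of every member in 6 genotype comparisons, members in pathway order from glucose entry at the top; filled red and blue points passed an adjusted p of 0.05. Calls lie in the 3 cDC1 panels alone, and most points of cDC1 Xbp1 KO against WT lie left of 0 (26 of 32).

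In cDC2 no member was called in any genotype comparison by edgeR. In Xbp1-Ire1 KO against WT, 0 of 33 tested members were called where 0.0258% of 11646 genes were, and in Xbp1 KO against WT 0 of 33 where 0.103% of genes were. Between the knockouts 0 of 33 were called, against 0.0343% of genes. The median log2 fold change of the members was -0.01 for Xbp1-Ire1 KO against WT, -0.07 for Xbp1 KO against WT and -0.03 between the knockouts. With so few calls among all genes, these counts say little about the members themselves. The members with the largest values in Xbp1 KO against WT were Eno2 (0.79 ± 0.45), Hk3 (0.45 ± 0.35), Gapdh (-0.39 ± 0.14) and Slc2a6 (-0.39 ± 0.19), and none passed. Slc2a3, the main cDC2 transporter, counted 212, 275 and 264 CPM in Xbp1-Ire1 KO, 200.4, 253 and 263 CPM in Xbp1 KO, against 278, 290.0, 252 and 219 CPM in WT, and the 3 genotypes overlapped. At an unadjusted p under 0.05 there were 0 members in Xbp1-Ire1 KO against WT, 2 in Xbp1 KO against WT and 1 between the knockouts. DESeq2 called 0 members in each of the 3. Against the fl-fl WT libraries alone, 2 members, Gapdh and Slc2a6, were lower in cDC2 Xbp1 KO (log2 fold changes -0.60 and -0.66, adjusted p = 0.0127 and 0.0318). Over all genes that run called 740, against 12 with all WT libraries. The share of 0.103% is therefore not the background of these 2 calls, which came with many more calls over all genes.

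Tested as a difference between cell types, 3 members were called for Xbp1-Ire1 KO against WT (Slc2a6, Pfkfb3 and Eno2, all lower in cDC1), where 2.23% of 12185 genes were called and 1.48% were lower. For Xbp1 KO against WT 1 member was called, Slc2a6, where 2.17% of genes were called and 1.84% were lower. For Xbp1-Ire1 KO against Xbp1 KO 0 of 33 were called, where 2.14% of genes were called and 0.32% were lower. The values for Pgk1, Pgam1, Ldha and Taldo1 in Xbp1 KO against WT were -0.18, -0.47, -0.13 and -0.25 and did not pass, so their changes were not shown to differ between cDC1 and cDC2.

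The promoters of 6 of the 8 called members are shown so that they can be read beside the values. They are those that hold the letters ACGTG, plus Slc2a6 and Pfkp, and these 6 genes did not all move together. Of all 8, 4 hold the letters ACGTG, the core of the element bound by hypoxia-inducible factors, within 250 bases upstream of the start in RefSeq (build GRCm38.p6), on either strand; ACGTG is contained in the E-box CACGTG and in TGACGTG, the core of an XBP1 element. The letters were in 16.6% of 32851 promoters of that length and in 11 of 33 matched members, CACGTG in 6.02% of promoters and 4 members, and TGACGTG in 1.65% of promoters and 2 members, Hk2 and Slc16a3. The 4 are Pfkfb3, Pgk1, Pgam1 and Ldha, and Slc2a6 and Pfkp, called in both knockouts, hold none; Eno2 and Taldo1 hold none either and are not printed; capitals mark each match in the 250 bases, 5′ to 3′ on the strand of the gene.
Slc2a6 (chr2:27027999-27028248, minus strand): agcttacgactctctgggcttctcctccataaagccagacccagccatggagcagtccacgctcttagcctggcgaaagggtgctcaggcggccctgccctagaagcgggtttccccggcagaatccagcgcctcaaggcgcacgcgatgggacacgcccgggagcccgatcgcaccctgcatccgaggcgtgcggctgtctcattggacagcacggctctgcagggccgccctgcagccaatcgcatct
Pfkp (chr13:6648772-6649021, minus strand): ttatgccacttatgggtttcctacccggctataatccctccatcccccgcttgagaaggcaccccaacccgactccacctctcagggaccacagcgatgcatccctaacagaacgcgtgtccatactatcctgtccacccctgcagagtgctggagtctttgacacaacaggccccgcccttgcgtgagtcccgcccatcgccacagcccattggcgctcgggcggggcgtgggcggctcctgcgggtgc
Pfkfb3 (chr2:11502091-11502340, minus strand): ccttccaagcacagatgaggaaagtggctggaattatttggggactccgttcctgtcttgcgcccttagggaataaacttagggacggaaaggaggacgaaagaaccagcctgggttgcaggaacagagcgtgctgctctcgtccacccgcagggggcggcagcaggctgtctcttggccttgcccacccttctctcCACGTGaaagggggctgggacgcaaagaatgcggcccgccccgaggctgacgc
Pgk1 (chrX:106186850-106187099, plus strand): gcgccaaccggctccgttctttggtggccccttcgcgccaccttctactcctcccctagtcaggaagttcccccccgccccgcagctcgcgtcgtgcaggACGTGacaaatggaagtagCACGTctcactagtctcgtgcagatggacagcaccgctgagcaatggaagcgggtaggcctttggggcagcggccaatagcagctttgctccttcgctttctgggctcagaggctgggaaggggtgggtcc
Pgam1 (chr19:41911621-41911870, plus strand): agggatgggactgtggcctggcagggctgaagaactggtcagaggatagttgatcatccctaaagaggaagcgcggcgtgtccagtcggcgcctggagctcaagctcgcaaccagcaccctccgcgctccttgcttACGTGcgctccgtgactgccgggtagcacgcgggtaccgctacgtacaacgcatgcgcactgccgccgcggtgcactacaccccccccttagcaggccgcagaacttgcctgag
Ldha (chr7:46845554-46845803, plus strand): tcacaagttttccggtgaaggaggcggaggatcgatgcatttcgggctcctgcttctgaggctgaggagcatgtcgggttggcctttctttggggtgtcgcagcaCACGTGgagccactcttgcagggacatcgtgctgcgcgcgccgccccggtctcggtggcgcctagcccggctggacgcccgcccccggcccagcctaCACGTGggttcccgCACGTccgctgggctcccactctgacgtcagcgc
Pgk1 has 2 separate matches, at bases -150 and -131 before the start, and Ldha has 3, at -145, -48 and -34, of which the first and the second are E-boxes. Pgam1 has 1 at -114 and Pfkfb3 has 1 E-box at -53. The starts used for Pfkfb3 and Ldha lie well inside the spans given above, which reach farther upstream. A match is a description of letters: Pfkfb3, with the E-box, was lower in Xbp1-Ire1 KO, and Pgk1, Pgam1 and Ldha were lower in Xbp1 KO, while Slc2a6 was lower in both knockouts without a match.

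Genes of neighbouring pathways were counted in cDC1 from lists, with log2 fold changes and adjusted p as for the members; in cDC2, 0 genes of these 7 lists were called in any genotype comparison. Over all genes tested in cDC1, 7.75% were called in Xbp1-Ire1 KO against WT and 11.2% in Xbp1 KO against WT, with median log2 fold changes of 0.01 and -0.02, and each list's count is set beside these shares. Of 25 tested further genes of glycolysis and the pentose phosphate pathway, 1 was higher and 1 lower in Xbp1-Ire1 KO against WT, and 0 were higher and 4 lower in Xbp1 KO against WT. The shares called were 8%, near the background, with a median of 0.03, and 16%, with a median of -0.11. Eno3, the muscle enolase, was lower in both, with a log2 fold change of -1.94 in Xbp1-Ire1 KO (adjusted p = 0.000198) and -1.32 in Xbp1 KO (0.00244). Emb, a chaperone of monocarboxylate transporters, was higher in Xbp1-Ire1 KO by a log2 fold change of 1.65 (adjusted p = 0.00233). H6pd, which makes NADPH inside the endoplasmic reticulum, was lower in Xbp1 KO (log2 fold change -0.92, adjusted p = 0.00445), as were the glucose transporter Slc2a8 (-1.86, 0.00849) and Dera, which splits deoxyribose phosphate (-0.67, 0.0191).

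Downstream of pyruvate, 2 of 31 tested genes of pyruvate entry and the TCA cycle were higher and 0 lower in Xbp1-Ire1 KO against WT, and 3 were higher and 4 lower in Xbp1 KO against WT. That is 6.45% in Xbp1-Ire1 KO, near the background, with a median of 0.14, and 22.6% in Xbp1 KO, with a median of -0.11. Mpc2, a subunit of the mitochondrial pyruvate carrier, was lower in Xbp1 KO (log2 fold change -1.53, adjusted p = 8.57e-05), and higher in Xbp1-Ire1 KO than in Xbp1 KO (1.75, 2.52e-05). Pck2, the mitochondrial enzyme that makes phosphoenolpyruvate, was higher in Xbp1-Ire1 KO (2.21, 1.98e-06) and in Xbp1 KO (0.81, 0.00385). Among 23 genes of the hexosamine and nucleotide sugar pathways, which draw on fructose-6-phosphate, 0 were higher and 5 lower in Xbp1-Ire1 KO, among them Gfpt1, the entry enzyme (-0.77, adjusted p = 0.00147), and 0 were higher and 2 lower in Xbp1 KO, Nans (-0.79, 0.00361) and Gmppb (-0.84, 0.00401). The shares were 21.7% with a median of -0.15 in Xbp1-Ire1 KO and 8.7% with a median of -0.27 in Xbp1 KO, the second under the background.

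Among 21 other genes of NADPH and antioxidant defence, 0 were higher and 3 lower in Xbp1-Ire1 KO against WT: Idh1, the cytosolic NADPH-making isocitrate dehydrogenase (-1.68, adjusted p = 4.95e-05), Gclc, the rate-limiting enzyme of glutathione synthesis (-1.47, 0.00172), and Gsr, glutathione reductase (-0.67, 0.0147). In Xbp1 KO against WT 2 were higher and 4 lower, with the peroxidases Gpx1 (-0.80, 0.00534) and Prdx1 (-0.63, 0.00697) foremost. These were 14.3% in Xbp1-Ire1 KO (median -0.05) and 28.6% in Xbp1 KO (median -0.30). Of 20 regulators of glycolysis, 0 were higher and 2 lower in Xbp1-Ire1 KO and 2 higher and 2 lower in Xbp1 KO, or 10% (median -0.14) and 20% (median -0.15). Among the called regulators, Hif1a, the oxygen-regulated subunit of HIF-1, was higher in Xbp1 KO (0.46, 0.0483). Vhl, which marks that subunit for degradation, was lower in Xbp1-Ire1 KO (-0.51, 0.0324) and in Xbp1 KO (-0.61, 0.011). Both comparisons also had called regulators that are not named here. Of 16 oxygen-sensing targets, of which Ldha and Pfkfb3 are members here too, 1 was higher and 1 lower in Xbp1-Ire1 KO and 2 higher and 1 lower in Xbp1 KO. That is 12.5% (median 0.12) and 18.8% (median 0.13). The lower calls are the members already given, Pfkfb3 in Xbp1-Ire1 KO and Ldha in Xbp1 KO. Vegfa, the angiogenic factor, was higher in Xbp1-Ire1 KO (3.78, 0.00285) and in Xbp1 KO (2.42, 0.0293). Of 15 glycogen genes, 1 was higher in Xbp1-Ire1 KO, Ugp2 (0.60, 0.0105), and 0 were called in Xbp1 KO, or 6.67% (median -0.10) and 0% (median 0.10). With lists of 15 to 31 tested genes, these shares rest on few calls.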

How the data were processed

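Per the labels, each library came from cells sorted by FACS from mouse spleen. The authors deposited raw counts per gene symbol in a table for each cell type, together with normalized log2 tables that were not used here. Per the submitters' processing notes, FastQC 0.11.4, Trimmomatic 0.35, TopHat2 2.1.0, SAMtools 0.1.19 and limma 3.42.2 were used with the mm10 build; the sources used here name no counting tool, annotation or strand setting.

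From the deposited counts, genes were kept with edgeR's filterByExpr (minimum count 10, minimum total 15), scaled by TMM and tested with edgeR 4.0.16 (R 4.3.3) by the quasi-likelihood F test. P-values were adjusted by Benjamini and Hochberg's method over every gene tested, with a threshold of 0.05. Each cell type had a fit of its own over the 3 genotypes (11353 genes in cDC1, 11646 in cDC2); WT cDC1 against WT cDC2 and the differences between cell types used all 19 libraries (12185 genes). Standard errors were approximated from the F statistic (size of the log2 fold change over its root). CPM values were scaled over all 19 libraries, and levels per kb used union exon lengths of GENCODE M21 basic genes (GRCm38). Between 10606864 and 16209469 counts per library limit the precision of genes with few counts. The fits were tested on simulated data.

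The members and the gene lists were chosen with earlier results of these data known. Members named are all 34, and genes of other lists named are among those called in a cDC1 genotype comparison. Alternatives were DESeq2 1.42.0, other size factors, other filters, fits of the compared groups alone, either kind of WT library alone, a replicate block and each library left out. Libraries of the same replicate number deviated together between WT cDC1 and WT cDC2 (correlations of their deviations from the group means 0.216, 0.39 and 0.329). In the genotype comparisons, the pairs of cDC2 Xbp1-Ire1 KO and cDC2 Xbp1 KO had 0.0502, 0.314 and 0.229. Each of the other genotype comparisons held a pair with a negative correlation. WT replicates 1 and 2 are fl-fl and WT replicate 3 is WT-named in both cell types. The correlations of the WT pairs therefore cannot tell a shared mouse from a shared kind of WT library. The WT replicate 3 pair, at 0.329, does not share a description number. Blocks were used only as alternatives. No 2 libraries agreed within sampling noise.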

Additional observations from a re-analysis of the deposited data

Results flagged for a closer look

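The Ldha level of cDC2 WT replicate 3 was 517 CPM, against 632 to 651 CPM in the other cDC2 WT libraries, and stood apart from them by a gap of 0.856 of the range of the group, above Dixon's 95% critical value for 4 samples. Such a gap arises by chance in about 1 of 20 groups, and 33 members were examined in this group of 4.

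For 3 members the genotype effect differed between cDC1 and cDC2 when that difference itself was tested with edgeR's quasi-likelihood test. The difference of log2 fold changes, cDC1 minus cDC2, was -1.48 for Slc2a6 in Xbp1-Ire1 KO against WT (adjusted p = 0.0256) and -2.12 for Slc2a6 in Xbp1 KO against WT (adjusted p = 0.00117). It was -2.17 for Pfkfb3 (adjusted p = 0.00615) and -3.55 for Eno2 (adjusted p = 0.0368) in Xbp1-Ire1 KO against WT. The Slc2a6 value for Xbp1-Ire1 KO and the Eno2 value, which rests on few counts, each did not pass in 10 of 20 alternatives. The Slc2a6 value for Xbp1 KO and the Pfkfb3 value passed in all 20.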

How the results depend on the processing

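Over 41 results on single members and 618 settings, 522 kept direction and side of the threshold, 96 kept direction but did not pass, and 0 reversed. The settings share most of their libraries, so they are not independent and a reversal was unlikely from the start. In the cDC1 fits, the fl-fl WT libraries alone and the run without cDC1 WT replicate 3 are the same fit, counted under both names. Counts of members called moved as follows, and the causes were not tested. In cDC1 Xbp1 KO against WT the count was 6, with 11 by DESeq2, 14 against the fl-fl WT libraries only, 2 against the WT-named library, 3 with the compared groups only and 1 to 14 when single libraries were left out. In cDC1 Xbp1-Ire1 KO against WT it was 4, and 3 to 6 with libraries left out. In cDC1 Xbp1-Ire1 KO against Xbp1 KO it was 2, with 4 by DESeq2, 1 with no filter, 4 with the compared groups only and 0 to 1 with libraries left out. In cDC2 Xbp1 KO against WT it was 0, and 2 against the fl-fl libraries. The difference between cell types for Xbp1-Ire1 KO gave 3 members, with 1 against the fl-fl libraries and 1 to 5 with libraries left out, and for Xbp1 KO 1 member, with 2 by DESeq2, 3 against the fl-fl and 2 against the WT-named libraries.

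Counts over all genes moved too. In cDC1 Xbp1-Ire1 KO against WT 880 genes were called, with 1371 by DESeq2, 1966 (fl-fl), 580 (WT-named), 575 (compared groups only) and 430 to 1966 (libraries left out). In cDC1 Xbp1 KO against WT there were 1270, with 2926 (fl-fl), 345 (WT-named), 828 (compared groups only) and 471 to 2926 (libraries left out). Between the knockouts there were 1437, with 2239 (compared groups only) and 648 to 1297 (libraries left out). In cDC2 Xbp1-Ire1 KO against WT there were 3, with 6 by DESeq2 and 485 (fl-fl); in Xbp1 KO against WT 12, with 46 by DESeq2, 21 with no filter, 740 (fl-fl) and 6 (WT-named); between the knockouts 4, with 11 by DESeq2 and 2 to 8 (libraries left out). WT cDC1 against WT cDC2 gave 4971, and 3156 with the WT-named libraries. The differences between cell types gave 272 for Xbp1-Ire1 KO (466 by DESeq2, 170 to 298 with libraries left out), 264 for Xbp1 KO (425 by DESeq2, 173 WT-named, 182 to 418 with libraries left out) and 261 between the knockouts (464 by DESeq2).

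In WT cDC1 against WT cDC2, the replicate block gave 24 members called against 25. Pfkfb3 was the one lost, and no other member's call changed. The replicate numbers are not a full pairing there. Replicates 1 and 2 share description names and numbers between the cell types, and replicate 3 does not. In the genotype comparisons the numbers were not taken as a pairing either. With the replicate block, 4 members were called in cDC1 Xbp1-Ire1 KO against WT and 4 in Xbp1 KO against WT. In the latter, Pgam1 (adjusted p = 0.0538) and Ldha (0.0696) did not pass. With 3 libraries a group, genes with few counts (Eno2, Rpia, Pfkm, Eno1) carry standard errors that only large changes exceed.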
